A study of Mus musculus with 18 samples.

Results

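Genes for the uptake and intracellular binding of fatty acids were read in the livers of mice that ate bisphenol A, a building block of polycarbonate plastic that binds estrogen receptors weakly. The set holds 10 genes, chosen with earlier results of these data known. Every array probe that carries the name of 1 of them was taken, whatever its values. They are 10 of the 27845 gene names on the array and 19 of its 41174 probes: 3 genes had 1 probe, 5 had 2 and 2 had 3. Of these, 18 probes, covering all 10 genes, were kept as measurable, among 25439 kept probes in all. The exception was Slc27a2 probe 3, which lies on the opposite strand to the other Slc27a2 probes and was well above background on 3 of 18 arrays. Probes of a gene are numbered from the brightest.

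All animals were male CD-1 mice, an outbred strain, and were 9 weeks old when the liver was taken. They had eaten 1 of 3 powdered diets for 28 days: a control diet without bisphenol A (0 µg/kg/day), 1 giving 50 µg/kg/day, labelled as the tolerable daily intake and called the low dose here, or 1 giving 5000 µg/kg/day, labelled as the no-observed-adverse-effect level and called the high dose. The basal diet, with starch, sucrose, casein and plant oils, was the same in all groups, and exposure was computed from an assumed food intake and not measured. Total RNA from a piece of the large lobe of 6 mice per group was hybridised to 1-colour Agilent arrays, 1 mouse per array.

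Long-chain fatty acids reach hepatocytes bound to albumin or are released from lipoproteins by lipases. At the cell they meet CD36 and the fatty acid transport proteins of the Slc27 family, which are also acyl-CoA synthetases, and inside the cell the small fatty acid binding proteins (Fabp) carry them to mitochondria, peroxisomes, the endoplasmic reticulum and the nucleus. Several of these genes are known targets of the nuclear receptor PPARα, which fatty acids themselves activate. A level below is log2 of a probe's intensity minus that of the 75th percentile of its array. Levels are compared between mice within a probe and never between probes, since probes bind with different strength.

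Low-dose and high-dose mice lay on all 5 slides and controls on 4 of them. The 75th percentile of intensity was 228 ± 42.5 units in control, 291 ± 43.7 in low-dose and 287 ± 34.6 in high-dose mice (SD, n = 6 each), so arrays of dosed mice were brighter than those of controls (exact permutation test, 2-sided p = 0.0303 for the low dose and 0.0238 for the high dose). Array position on the slide also went largely with group, and its part in the results was not tested. The liver label was checked against marker genes: all 6 hepatocyte markers with a probe were kept, and Apoa1, a plasma lipoprotein of hepatocytes, was saturated on 17 arrays. The adipocyte hormones Adipoq and Lep were above background on no array, and 0 of 8 probes for striated muscle were kept. Other marker genes of cells from outside the liver were measurable. Of the genes with a probe, 3 of 6 for adipocytes, 3 of 5 for enterocytes and 1 of 3 for pancreatic acinar cells were kept. No marker probe of any cell type passed the threshold in any comparison.

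No probe of the 18 passed an adjusted p of 0.05 in any of the 3 comparisons (limma, Benjamini-Hochberg over all kept probes). For low dose against control, 0.216% of all 25438 probes tested passed. At an unadjusted p under 0.05, 6 of the 18 probes, from 4 genes, differed between low-dose and control mice, against 12.1% of all probes. Of these, 1 was higher (Fabp5) and 5 were lower (2 each of Slc27a2 and Lpl, and Fabp1, whose saturated probe is counted but not read), against 5.77% higher and 6.33% lower over all probes. Slc27a2 probe 2 lay nearest the threshold with an adjusted p of 0.0560. In 3 of the 18 probes, from Slc27a2 and Lpl, every low-dose mouse lay below every control mouse, which held for 0.947% of all probes. The median difference of the 18 probes was 0.08 on the log2 scale, with 12 higher and 6 lower, against −0.01 over all probes, of which 47.7% were higher. The genes were chosen with earlier results known, so these shares describe the set and do not test it.

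Slc27a2, also known as FATP2 or very long-chain acyl-CoA synthetase, is a major fatty acid transport protein of hepatocytes. It activates very long-chain and branched fatty acids at peroxisomes and the endoplasmic reticulum. Its probe 1 (A_52_P154971, mm8 chromosome 2, 126279255 to 126279314, plus strand) and probe 2 (A_51_P484551, 126256120 to 126256179) read 2 stretches of the same gene. The promoter is shown because this gene gave the smallest p of the set. The 250 bases before its start, from RefSeq, are chr2:126552774-126553023 on GRCm38.p6, plus strand. Capitals mark the letters TGACCT, which read AGGTCA on the opposite strand, the core sequence that PPARα and other nuclear receptors bind in pairs.
Slc27a2 promoter: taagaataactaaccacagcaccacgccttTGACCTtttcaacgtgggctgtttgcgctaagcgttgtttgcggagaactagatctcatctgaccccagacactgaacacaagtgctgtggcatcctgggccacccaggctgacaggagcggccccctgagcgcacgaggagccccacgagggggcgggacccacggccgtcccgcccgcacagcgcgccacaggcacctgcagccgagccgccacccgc
The motif lies 220 to 215 bases before the start. AGGTCA on either strand occurred in 14.0% of 32851 promoter windows of this length, and in 3 of 7 windows of the 6 member genes that had a window, those of Slc27a2, Cd36 and Fabp1. A direct repeat of AGGTCA with 1 base between the copies was in none of the 7 and in 0.0335% of all windows. Such matches describe letters in the window and are not evidence of binding.

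Slc27a2 probe 2 had levels of 2.11, 2.86 and 3.18 (lowest, median and highest) in low-dose mice, against 3.67, 3.71 and 3.82 in controls. All 6 low-dose mice lay below all 6 controls. The SD was 0.46 in low-dose mice and 0.055 in controls, which lay close together. The mean was 2.73 at the low dose and 3.72 in controls, a difference of −0.99 ± 0.21 (SE; 95% interval −1.42 to −0.55), or 0.504-fold, with an adjusted p of 0.0560. Slc27a2 probe 1 ran from 6.29 to 7.03 in low-dose mice (median 6.53), against 7.18 to 7.49 in controls (median 7.21). Again no low-dose mouse reached the lowest control. The difference was −0.68 ± 0.16 (0.626-fold, adjusted p = 0.0801), on 17 arrays, because the spot of high-dose mouse 4 was marked as an outlier and dropped. Before scaling, the low-dose and control mice overlapped for both probes. Probe 2 had 1073 to 2801 units in low-dose mice and 2368 to 4005 in controls. Probe 1 had 20934 to 33593 units in low-dose mice and 25857 to 45348 in controls. In liver tissue, less RNA per hepatocyte and fewer of the cells that hold the transcript cannot be told apart, here or in any result below.

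Within the 4 slides that held both groups, low-dose mice lay below controls on every slide, by −1.60 to −0.57 for Slc27a2 probe 2 and by −0.81 to −0.36 for probe 1. Each slide held only 1 or 2 mice of a group. They are the same mice as above, without low-dose mouse 3, whose slide had no control. The side of the threshold depended on the fit. Without low-dose mouse 4, whose Slc27a2 levels were the highest of its group, the adjusted p was 0.0399 for probe 2 and 0.0465 for probe 1. Without high-dose mouse 2, which enters only through the shared variance, it was 0.0331 and 0.0280. Of the 18 fits with 1 array left out, these 2 were the only ones with a call. Without low-dose mouse 2 the adjusted p was 0.101 for probe 2 and 0.146 for probe 1. Without control mouse 4 it was 0.113 and 0.168. With array brightness as a covariate the differences were −1.07 and −0.58, with adjusted p of 0.383 and 0.530, and with another background method (normexp) probe 1 differed by −0.31 (adjusted p = 0.528).

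**Figure D1:**
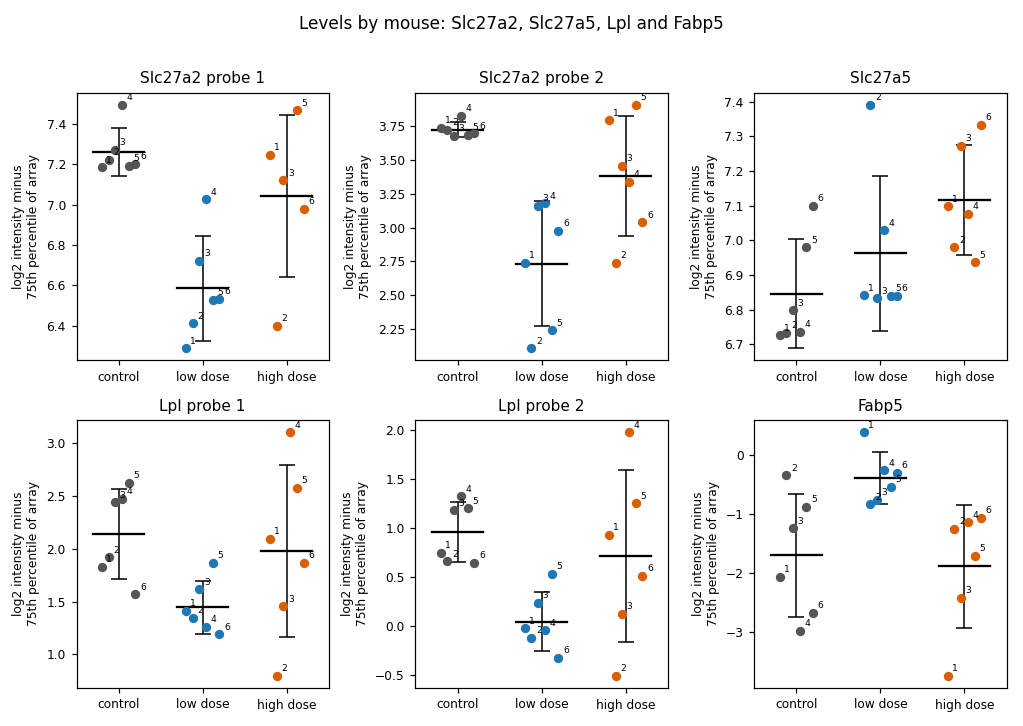
Levels of Slc27a2, Slc27a5, Lpl and Fabp5 in each mouse (points, numbered by mouse), as log2 intensity relative to the array's 75th percentile (y axes), for control, low dose and high dose. Long bars are group means and error bars the SD (n = 6 mice per group, 5 for Slc27a2 probe 1 at the high dose). For both Slc27a2 probes and Lpl probe 2 the low-dose points lie below all control points, while high-dose points spread across both.

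At the high dose the mean of Slc27a2 lay between those of the other groups. Probe 2 ran from 2.74 in mouse 2 to 3.91 in mouse 5 (median 3.40). Of the high-dose mice, 4 lay below every control, 1 lay above every control, and 6 of 6 lay above the low-dose mean. High dose minus control was −0.34 ± 0.21 (adjusted p = 0.762), and high minus low dose was 0.64 ± 0.21 (95% interval 0.21 to 1.08, adjusted p = 0.407). Probe 1 gave −0.22 ± 0.16 against control (adjusted p = 0.814) and 0.46 ± 0.16 against the low dose (adjusted p = 0.495). Without high-dose mouse 2 the differences from control were −0.22 for probe 2 and −0.06 for probe 1. With normexp that of probe 1 from the low dose was 0.23. On all 5 slides probe 2 was higher in high-dose than in low-dose mice, by 0.18 to 1.68. Neither comparison passed the threshold under any alternative run.

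Slc27a5, or FATP5, a liver protein that also conjugates bile acids to coenzyme A, had levels of 6.73 to 7.10 in control (median 6.77), 6.83 to 7.39 in low-dose (median 6.84) and 6.94 to 7.33 in high-dose mice (median 7.09). All 6 high-dose mice lay above the control mean, but the groups overlapped. High dose minus control was 0.27 ± 0.11 (1.21-fold, adjusted p = 0.675), and it was positive on all 4 slides, from 0.16 to 0.51. With normexp the same difference was 0.49. Low dose minus control was 0.12 ± 0.11 (adjusted p = 0.743), and 0.52 with normexp. Low-dose mouse 2 set the highest value of its group, and without it the difference was 0.03.

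Slc27a4, or FATP4, an acyl-CoA synthetase best known from intestine and skin, varied little between mice. Its probe 1 differed by 0.03 ± 0.11 between low dose and control and by −0.15 ± 0.11 between high dose and control (95% intervals −0.21 to 0.26 and −0.38 to 0.09). Probe 2, a dim probe, gave −0.09 ± 0.12 and −0.12 ± 0.12. Alternatives moved these small differences. For low dose against control, probe 1 alone went from 0.03 to 0.22, and the mean of both probes gave −0.03. Without low-dose mouse 4, probe 1 gave −0.02. For high dose against control, probe 1 went from −0.21 to 0.04, which turned its sign. Probe 2 gave −0.42 for low dose against control with normexp.

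Cd36, a scavenger receptor and fatty acid translocase whose liver level is known to rise with fat accumulation, varied several-fold between mice of a group. Probe 1 ran from −1.66 to 0.24 in control, −2.16 to 0.16 in low-dose and −1.46 to −0.32 in high-dose mice, with medians of −1.27, −0.71 and −0.77. Control mouse 5 and low-dose mouse 6 were the highest, and the groups overlapped throughout. Low dose minus control was 0.28 ± 0.37 (95% interval −0.50 to 1.06) and high dose minus control 0.22 ± 0.37 (−0.56 to 1.00). Probe 2 gave 0.18 ± 0.27 and 0.24 ± 0.27. With 1 mouse left out, the low-dose difference went from 0.10 to 0.56 for probe 1 and from 0.02 to 0.39 for probe 2, lowest in both without low-dose mouse 6, and with normexp that of probe 2 was −0.06. The adjusted p of the 4 differences from control was 0.826 or more. The intervals are wide, so that the data do not show equal Cd36 levels.

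**Figure D2:**
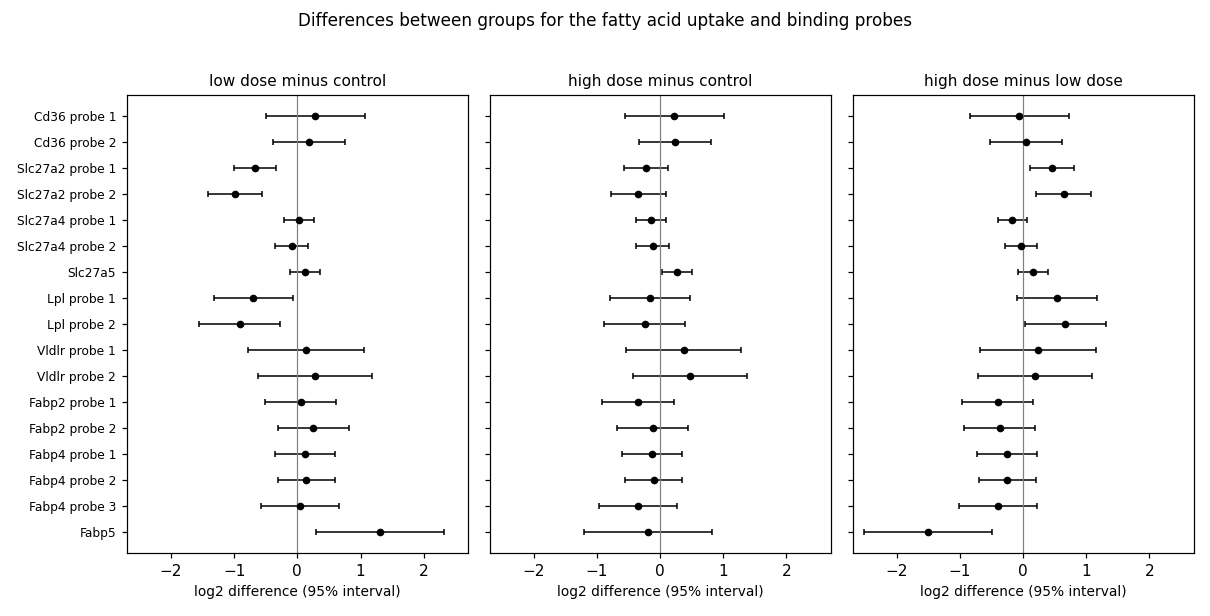
Log2 differences for low dose minus control, high dose minus control and high dose minus low dose (x axes), with 95% intervals, for 17 probes of 9 genes in rows. Fabp1 is left out because its probe was saturated. Among the intervals that do not reach 0 are those of Slc27a2, Lpl and Fabp5 for low dose minus control, and of Slc27a2, Lpl probe 2 and Fabp5 for high minus low dose, and no difference passed the adjusted threshold.

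Lpl, lipoprotein lipase, releases fatty acids from triglyceride in lipoproteins at the capillary wall, and adult hepatocytes make little of it. Its probe 2 (A_52_P257812, mm8 chromosome 8, 71830140 to 71830199) had levels of −0.32, −0.03 and 0.54 (lowest, median and highest) in low-dose mice, against 0.65, 0.96 and 1.33 in controls. The 2 groups did not overlap. Before scaling they did, with 250 to 370 units in low-dose mice and 298 to 520 in controls. The mean levels were 0.05 and 0.96, a difference of −0.92 ± 0.31 (95% interval −1.56 to −0.27, 0.530-fold) with an adjusted p of 0.225. Probe 1 (A_51_P259296, 71835357 to 71835416) ran from 1.19 to 1.86 in low-dose mice, against 1.57 to 2.62 in controls. Here 4 of 6 low-dose mice lay below every control, and the difference was −0.70 ± 0.30 (adjusted p = 0.352).

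Within the 4 slides, Lpl was lower in low-dose mice than in controls on each, by −1.52 to −0.41 for probe 2 and −1.43 to −0.28 for probe 1. Probe 2 passed the threshold when only the low-dose and control mice were in the model (adjusted p = 0.0418), and probe 1 gave −0.41 with normexp. Macrophages also hold Lpl, and its protein acts at the capillary wall, while the probes read RNA. The summed level of 7 macrophage and Kupffer cell markers was 4.72 to 6.30 in control, 5.05 to 6.45 in low-dose and 5.26 to 7.15 in high-dose mice, and that of 6 endothelial markers 4.38 to 5.11, 4.28 to 5.41 and 4.01 to 5.14. These ranges overlapped, and their part in the Lpl result was not tested.

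High-dose mice differed from each other in Lpl more than from either group. Probe 2 ran from −0.50 in mouse 2 to 1.98 in mouse 4, and the SD was 0.31 in control, 0.30 in low-dose and 0.87 in high-dose mice. High dose minus control was −0.24 ± 0.31 (adjusted p = 0.893) and high minus low dose 0.67 ± 0.31 (adjusted p = 0.637). Mouse 2 and mouse 4 decided these values. Without mouse 2 the difference from control was −0.00082 and that from the low dose 0.91 (adjusted p = 0.242). Without mouse 4 they were −0.50 and 0.42. For probe 1 the difference from control was −0.16 ± 0.30. It was 0.08 without mouse 2 and −0.39 without mouse 4.

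Vldlr, the receptor for very low density lipoprotein, varied several-fold between mice of every group. Its probe 1 ran from −1.24 to 1.03 in control, −0.91 to 1.81 in low-dose and −0.48 to 1.31 in high-dose mice, a 4.82-fold, 6.59-fold and 3.46-fold range. The groups overlapped fully. Low dose minus control was 0.14 ± 0.43 and high dose minus control 0.37 ± 0.43 for probe 1, and 0.28 ± 0.43 and 0.47 ± 0.43 for probe 2 (adjusted p from 0.848 to 0.937). Low-dose mouse 2 was the highest of its group, and without it the low-dose differences were −0.19 and −0.05. With normexp that of probe 2 was −0.13. Within slides the low-dose difference of probe 1 went from −0.54 to 2.02.

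**Figure D3:**
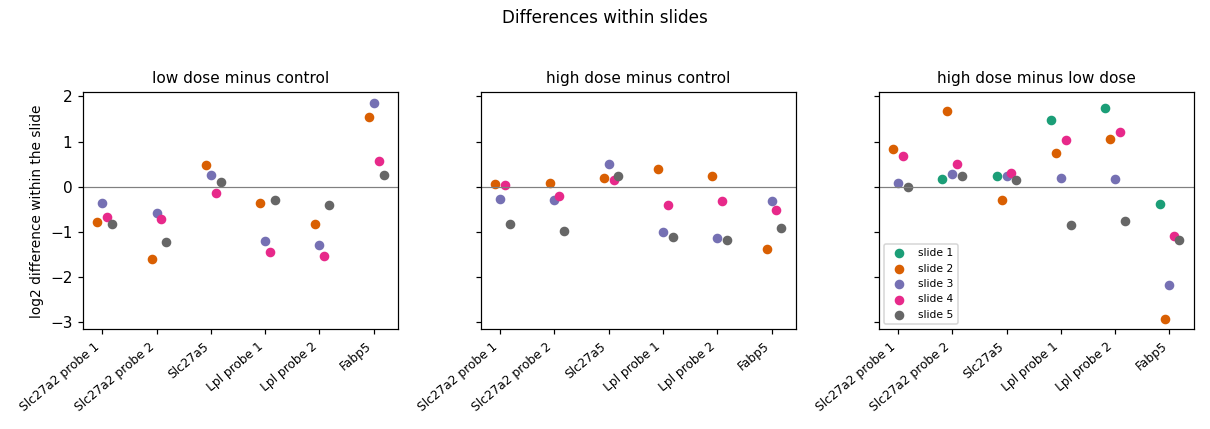
Differences within slides, low dose minus control, high dose minus control and high minus low dose, in log2 units (y axis), for Slc27a2, Slc27a5, Lpl and Fabp5 (x axis). Each point is 1 slide, the difference of the group means on it, each mean from 1 or 2 mice. There are 4 slides for comparisons with controls and 5 for high minus low dose (4 for Slc27a2 probe 1). Low-dose Slc27a2 and Lpl lie below 0 and low-dose Fabp5 above 0 on all 4 slides.

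Inside the cell, Fabp5, the epidermal fatty acid binding protein, which carries fatty acids to the cytosol and nucleus and is found in macrophages as well as epithelia, had the largest difference from control among the 18 probes. Its probe (A_51_P387764, mm8 chromosome 3, 9998905 to 9998964) had levels of −0.83, −0.42 and 0.40 (lowest, median and highest) in low-dose mice, against −2.98, −1.65 and −0.34 in controls. Of the low-dose mice, 3 lay above every control and 6 of 6 above the control mean, and the groups overlapped. The difference was 1.32 ± 0.48 (95% interval 0.30 to 2.33, 2.49-fold, adjusted p = 0.266). It was positive on each of 4 slides, from 0.27 to 1.86. It shrank to 0.46 with normexp and to 0.79 with array brightness as a covariate (adjusted p = 0.485 and 0.843), and the probe is dim. RefSeq also lists a pseudogene, Fabp5l2, and whether the probe reads it was not tested.

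High-dose levels of Fabp5 ran from −3.74 in mouse 1 to −1.06 in mouse 6 (median −1.47), and all 6 lay below all 6 low-dose mice. Before scaling the 2 groups overlapped, with 23 to 159 units in high-dose and 156 to 458 in low-dose mice. High minus low dose was −1.51 ± 0.48 (95% interval −2.52 to −0.49, 0.352-fold, adjusted p = 0.405), and it was negative on all 5 slides, from −2.92 to −0.39. High dose minus control was −0.19 ± 0.48 (adjusted p = 0.955). Within slides it was negative on all 4, from −1.37 to −0.32, it was −0.69 with array brightness as a covariate, and it turned to 0.18 without high-dose mouse 1. Of the 3 kept adipocyte marker probes, 2 were higher and 1 lower for low dose minus control (median 0.72), and 2 were higher and 1 lower for high minus low dose (median 0.45). The 1 of them with an unadjusted p under 0.05 in these comparisons was Slc2a4, the insulin-responsive glucose transporter, at 2.40 ± 0.86 (adjusted p = 0.258) and −1.86 ± 0.86 (adjusted p = 0.645). For low dose minus control and then high minus low dose, Cfd, a secreted adipocyte protease, gave 0.72 and 0.54, and Cidec, a lipid droplet protein, gave −0.78 and 0.45. The summed level of the adipocyte markers was 0.02 to 1.43 in control, −0.07 to 2.16 in low-dose and −0.91 to 1.91 in high-dose mice, with 0 of 3 kept probes past the threshold. The part of these markers and of the macrophage markers above in the Fabp5 result was not tested.

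Fabp1, the liver fatty acid binding protein and the most abundant of the family in hepatocytes, could not be compared. Its probe was saturated on 15 of 18 arrays, 4 of 6 in control, 5 of 6 in low-dose and 6 of 6 in high-dose mice, so that its level is only a lower bound, and neither a fold nor a test of it is read here. Before scaling, its intensity was 64609 to 72693 units in control, 50700 to 70664 in low-dose and 63709 to 74186 in high-dose mice, so that the unscaled ranges overlapped.

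Fabp2, the intestinal fatty acid binding protein, and Fabp4, that of adipocytes and macrophages, were both measurable in these livers. Fabp2 probe 1 ran from 5.52 to 6.19 in control and 5.61 to 6.33 in low-dose mice. In high-dose mice it ran from 4.02 to 6.00, where mouse 2 was lowest and the other 5 lay between 5.65 and 6.00. Low dose minus control was 0.05 ± 0.27 for probe 1 and 0.25 ± 0.27 for probe 2, and high dose minus control was −0.35 ± 0.27 and −0.12 ± 0.27. Without high-dose mouse 2 the high-dose differences were −0.05 and 0.14. The summed level of the enterocyte markers was 4.97 to 6.52 in control, 4.90 to 5.70 in low-dose and 1.79 to 5.59 in high-dose mice. The genes summed were Vil1, Cdx2, Alpi, Lct and Apoa4. The sum is of intensities, so that the brightest probes set it. Whether these genes mark enterocytes in this tissue was not tested. All 3 kept enterocyte probes were lower in both dosed groups than in controls, and 0 passed the threshold. The marker Lct was above background on no array, and the part of these markers in the Fabp2 values was not tested.

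Fabp4 probes 1 and 2 were alike. Probe 1 ran from 1.44 to 2.05 in control, 1.55 to 2.27 in low-dose and 0.64 to 2.35 in high-dose mice, and high-dose mouse 2 was again the lowest. Low dose minus control was 0.12 ± 0.23 and 0.14 ± 0.22, and high dose minus control −0.14 ± 0.23 and −0.10 ± 0.22. Without high-dose mouse 2 the high-dose differences were 0.06 and 0.09. Probe 3, well above background on 16 of 18 arrays, gave 0.04 ± 0.29 for the low dose and −0.35 ± 0.29 for the high dose. The adjusted p of all 10 Fabp2 and Fabp4 differences from control was 0.774 or more.

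**Figure D4:**
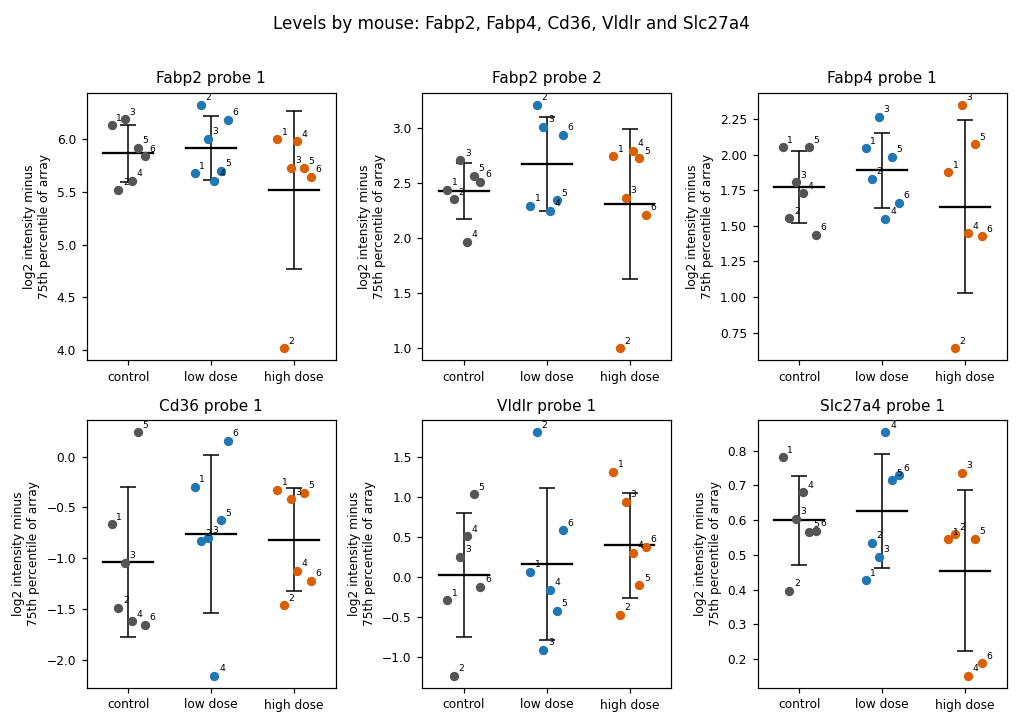
Levels of Fabp2, Fabp4, Cd36, Vldlr and Slc27a4 in each mouse (points, numbered by mouse), as log2 intensity relative to the array's 75th percentile (y axes), for control, low dose and high dose. Long bars are means and error bars the SD (n = 6). High-dose mouse 2 is the lowest point for both Fabp2 probes and Fabp4, and the groups overlap in all 6 panels.

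Across the set, high dose against control gave 2 of 18 probes at an unadjusted p under 0.05, against 7.03% of all probes. These were Slc27a5, higher, and Fabp1, lower on a saturated probe that is counted but not read, against 3.37% higher and 3.66% lower over all probes. The 2 groups overlapped for each of the 18 probes, while they did not for 0.405% of all probes, and 0% of all probes passed the adjusted threshold. The median difference was −0.14, with 5 probes higher and 13 lower, against 0.00 over all probes, of which 50.5% were higher. High against low dose gave 4 of 18 at an unadjusted p under 0.05, against 7.59% of all probes. Both Slc27a2 probes and Lpl probe 2 were higher and Fabp5 was lower, against 3.43% higher and 4.16% lower over all probes. Fabp5 was the 1 probe of the 18 with all high-dose mice below all low-dose mice, which held for 0.381% of all probes, and 0.0432% of all probes passed the adjusted threshold. The 18 probes had 9 higher and 9 lower, with 53.8% of all probes higher. The low-dose mice enter 2 of the comparisons, so that a low-dose value far from controls also stands far from the high dose.

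Other genes of the pathway gave no call. Among 4 kept probes of other Fabp and Slc27 genes, none passed the threshold in any comparison, and the p-values closest to it were those of Slc27a3 at the low dose (0.29 ± 0.18, adjusted p = 0.550) and Fabp7 at the high dose (0.59 ± 0.31, adjusted p = 0.737). Fabp6, Fabp9, Pmp2 and Slc27a6 were above background on no array. Of 14 kept probes for genes that handle LPL, 0 passed. Angptl4, a secreted inhibitor of LPL and a PPAR target, gave −1.05 ± 0.48 at the low dose (adjusted p = 0.411), and Apoa5, an activator of LPL, −0.32 ± 0.14 at the high dose (adjusted p = 0.692) on its probe that was saturated on no array.

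Of 14 kept probes for lipoprotein receptors, 0 passed. Of 11 kept probes for other carriers of fatty acids and acyl-CoA, 0 passed. Acbd5, a peroxisomal acyl-CoA binding protein for very long chains, came nearest, with −0.56 ± 0.12 at the low dose (adjusted p = 0.0680) on 1 probe and −0.25 ± 0.17 (adjusted p = 0.599) on the other. Of 14 kept probes for nuclear receptors and factors known to bind at these genes, 0 passed, and Ppara itself differed by −0.26 ± 0.17 at the low dose (adjusted p = 0.596) and by −0.01 ± 0.17 at the high dose.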

How the data were processed

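Liver RNA of 18 mice, 6 per group, was measured on 1-colour (Cy3) Agilent arrays. Per the file headers, Agilent Feature Extraction 9.5.3.1 subtracted background within each array, and the deposited spot intensity is not normalised between arrays. The submitters' processing notes name Feature Extraction 9.5 and limma without steps. The authors' deposited value table holds log2 intensity and was used as an alternative only. Probe positions are on mouse build mm8, as in the files, and no genome of that build was used here, so exons are not given. Promoters are RefSeq's, on GRCm38.p6, with a window for 6 of the 10 genes. Lpl, Fabp4, Fabp5 and Slc27a5 were not among them.

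Outlier spots were dropped, repeated spots averaged, and the 75th percentile of each array subtracted from log2 intensity. Probes well above background on at least 6 of 18 arrays were kept, and each was tested alone with limma 3.58.1 (lmFit, eBayes; R 4.3.3), all groups in 1 model without covariates, 2-sided, adjusted by Benjamini-Hochberg over all kept probes at 0.05. Intervals are at 95%. Precision rests on the number of arrays and on the spread between mice, with a median SE of 0.27 for the members and 0.16 over all probes. Slides are arrays that share a scan, per the file headers. The procedure was tested on simulated data. All members are named whatever their values, and of other lists up to 3 probes with the smallest p in a comparison. Not every such gene is reported here. The cell type lists were hepatocyte, adipocyte, macrophage and Kupffer cell, endothelium, stellate cell, enterocyte, pancreatic acinar cell and striated muscle, with 0 calls in each. The members and lists were chosen with earlier results of these data known. Mice are separate animals. The labels give no pairing of mice across groups. Alternatives covered scaling, background, filter, probe choice, model, slide and mouse number as blocks, array brightness and leaving out each array.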

Additional observations from a re-analysis of the deposited data

Results flagged for a closer look

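Single mice stood apart from their group in 4 of the 54 sets of 1 probe in 1 group, by Dixon's test at its 95% critical value, which chance alone gives in about 5% of sets. High-dose mouse 2 had a Fabp2 probe 1 level of 4.02, against 5.65 to 6.00 in the other 5, and a Fabp2 probe 2 level of 1.00, against 2.21 to 2.80. The same mouse was the lowest of the high-dose group for all 3 Fabp4 probes and for both probes each of Lpl, Slc27a2, Cd36 and Vldlr. It was also the lowest for Slc27a4 probe 2, but not for Slc27a4 probe 1, Slc27a5 or Fabp5. Control mouse 4 had the highest Slc27a2 probe 1 level of its group, 7.49 against 7.18 to 7.27, and without it low dose minus control was −0.63 (adjusted p = 0.168). Low-dose mouse 2 had a Slc27a5 level of 7.39, against 6.83 to 7.03 in the other 5 mice.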

How the results depend on the processing

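For low dose against control, 0 of the 18 probes passed, and 0 passed under 11 of 16 alternatives. The other 5 gave 1 with a filter for probes well above background on all arrays, 3 when the model held only the compared groups, 2 with eBayes with trend and robust, 2 with array weights and 1 with slide as a random block. Calls were of Slc27a2, and in 1 setting also of Lpl. Leaving out each array in turn gave 0 to 2 probes, with a call in 2 of 18 fits. With the replicate block (mouse number as a block) the count was 0, with adjusted p of 0.0867 and 0.0877 for Slc27a2 probes 2 and 1. The block changed no call of a member in any comparison, and over all probes it left 16 calls of low dose against control. Between same-numbered mice, deviations from the group means correlated from −0.29 to 0.33. So few values cannot decide whether the numbers pair the mice, and the labels do not say that they do. The smallest adjusted p of the members went from 0.0282 to 0.485 over the 16 alternatives. For the other comparisons the count was 0 in all 16 alternatives and in all 18 fits with 1 array left out, with the smallest adjusted p at 0.128 for high against low dose and 0.428 for high dose against control. Over all probes, the 55 calls of low dose against control went from 0 with array brightness as a covariate to 203 with array weights, and from 8 to 119 with 1 array left out. The 11 calls of high against low dose went from 0 to 38. Of single-probe values, 16 moved by more than the spread between mice, mostly of Fabp1, Slc27a4 and Slc27a5 under another scaling or background method or with array brightness as a covariate, and the cause was not tested. Signal near saturation limits Fabp1, and dim signal limits Slc27a4 probe 2, Fabp4 probe 3 and Fabp5.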

Other observations

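Over the 18 arrays, the genes whose level followed Slc27a2 probe 2 most closely were Clpx (Pearson r 0.90, Spearman rho 0.82), Slc25a46 (0.90 and 0.82), Hand2 (0.90 and 0.88), Pnpla2 (0.86 and 0.87) and Amotl2 (0.85 and 0.82). Slc27a2 probe 2 was taken because it had the smallest p over the 3 groups of the 18 probes, and the points share their slides and the differences between groups, so that these values are a description. Pnpla2 encodes adipose triglyceride lipase, which frees fatty acids from stored triglyceride, and Clpx a mitochondrial protein chaperone.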
